A study of Mus musculus with 12 samples.

Results

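The genes described here are 9 that encode enzymes of the tricarboxylic acid (TCA) cycle: Cs, Idh3a, Idh3b, Idh3g, Ogdh, Dlst, Suclg1, Fh1 and Mdh2. They were chosen by gene symbol, and every probe set of the Affymetrix mouse genome 430 2.0 array annotated to one of these symbols alone was taken, which gave 22 of the 45101 probe sets. The counts per gene were 3 for Cs, 4 for Idh3a, 3 for Idh3b, 2 for Idh3g, 2 for Ogdh, 4 for Dlst, 1 for Suclg1, 1 for Fh1 and 2 for Mdh2. The probe set with the highest mean over the 12 arrays stands for its gene and is called the lead.

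RNA came from 2 mouse adipocyte models of steroid receptor RNA activator (SRA), an RNA coregulator of nuclear receptors, with 3 biological replicates in each of 4 groups. Marrow-derived ST2 cells carried the retroviral vector pMSCV-SRA (SRA) or empty pMSCV (control) and were collected on day 4 of differentiation. The 3T3-L1 cells expressed a short hairpin RNA against SRA (pSuperior-shSRA, here shSRA) or a control hairpin (shControl, called empty vector in the sample labels), and were collected on day 8. All 4 groups had received 0.5 mM 3-isobutyl-1-methylxanthine, 1 μM dexamethasone, 0.167 μM insulin and 5 μM troglitazone, a mixture that includes a PPARγ agonist and that differentiates both lines strongly. The labels give the strain as BC8 for ST2 and Swiss albino for 3T3-L1. Each line is an established cell line, so that the replicates are cultures and not animals. Arrays are named below by group and replicate.

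The TCA cycle oxidises acetyl-CoA in the mitochondrial matrix and passes the electrons to the respiratory chain. In adipocytes it also supplies citrate, which leaves the mitochondrion and is split in the cytosol into the acetyl-CoA used for fatty acid synthesis. Cs, citrate synthase, makes citrate. Idh3a, Idh3b and Idh3g are the catalytic and regulatory subunits of the NAD-dependent isocitrate dehydrogenase. Ogdh and Dlst are components of the 2-oxoglutarate dehydrogenase complex, Suclg1 is the α subunit of succinyl-CoA synthetase, Fh1 is fumarase and Mdh2 is the mitochondrial malate dehydrogenase.

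All values are log2 of the normalised signal. A gene was called higher or lower where its Benjamini-Hochberg adjusted p from limma was under 0.05 among the 19068 probe sets whose variance over the 12 arrays exceeded 0.05. Of the member probe sets 12 of 22 passed that filter, and of the leads 3 of 9 (Cs, Idh3b and Ogdh). The other 6 leads were read from the same model fitted to all 45101 probe sets. Without the array ST2 control 2, left out in some of the results below, 8 of 22 probe sets and 2 of 9 leads (Cs and Ogdh) passed the filter, and the rest were again read over all probe sets. In bulk RNA of this kind, fewer cells of a type and less RNA per cell cannot be told apart.

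Both lines carried adipocyte RNA in all groups. Fabp4, the adipocyte fatty acid binding protein, averaged 14.95 in ST2 SRA and 14.78 in ST2 control, and 14.98 in 3T3-L1 shSRA against 14.89 in shControl. Sra1, the mouse gene the hairpin targets, read 9.46, 9.20 and 9.62 in shSRA against 11.86, 11.67 and 11.84 in shControl, a difference of -2.36 (SE 0.178, limma adjusted p = 5.58e-07). In ST2 cells the same probe set read 11.13, 11.13 and 11.44 in SRA against 11.14, 10.67 and 11.24 in control, with overlap, and was not called (0.22, adjusted p = 0.484, and 0.049 without ST2 control 2, adjusted p = 0.888). The vector carries human SRA, and whether this mouse probe set matches it was not tested, so the arrays give no check of the overexpression. One array stood apart. ST2 control 2 deviated by -0.43 from the average of ST2 control 1 and 3 at the median of 14314 bright probe sets (mean log2 value of at least 8), so the ST2 results of the members are given with and without it.

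Short stretches of promoter are shown for the members whose RefSeq promoter (GRCm38.p6, 250 bases before to 50 after the start) held the CCAAT box, which more members held than any other of 5 motifs searched on both strands. Promoters of 8 members were found, and Idh3a was not among them. CCAAT matches were present in 4 of the 8 (Cs, Idh3b, Ogdh and Fh1), against 41.1% of 27025 genes, and Ogdh has 6 promoter windows in the set where the other 7 members have 1. The nuclear respiratory factor 1 core GCGCATGC and the E-box CACGTG were each matched in Ogdh alone (3.05% and 8.09% of all genes), the ETS motif CCGGAAGT in Dlst alone (4.31%), and the oestrogen-related receptor motif TCAAGGTCA in none (0.466%). The sequences below are on the gene's strand with the CCAAT box, or its reverse complement ATTGG, in capitals. One match is shown for each gene, at positions -55 to -51 from the start in Cs, -76 to -72 in Idh3b, -70 to -66 in Fh1 and, counted from the first of its starts, -60 to -56 in Ogdh. Cs had another match starting at -116 and Fh1 at -19, and Ogdh had several more.
Cs (chr10:128337654-128337694, plus strand): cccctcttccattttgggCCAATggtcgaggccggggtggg
Ogdh (chr11:6291519-6291559, plus strand): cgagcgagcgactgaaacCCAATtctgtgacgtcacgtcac
Idh3b (chr2:130284505-130284545, minus strand): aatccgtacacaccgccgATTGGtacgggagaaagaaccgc
Fh1 (chr1:175625683-175625723, minus strand): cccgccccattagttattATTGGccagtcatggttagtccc

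In ST2 adipocytes all 9 leads were higher on average with SRA overexpression, by 0.15 to 0.38 on the log2 scale (median 0.31), and none of them was called. The share of all tested probe sets called higher in this comparison was 2.33%, and 5.65% were called lower. Among the bright probe sets the median difference was 0.12 and 70.4% were positive. Without ST2 control 2 the 9 leads were again all positive, at 0.03 to 0.24 (median 0.14), while the bright probe sets had a median of -0.014 with 47.1% positive. None of the 9 was called without that array either, where 2.38% of 14741 tested probe sets were called higher and 12.9% lower.

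**Figure D1:**
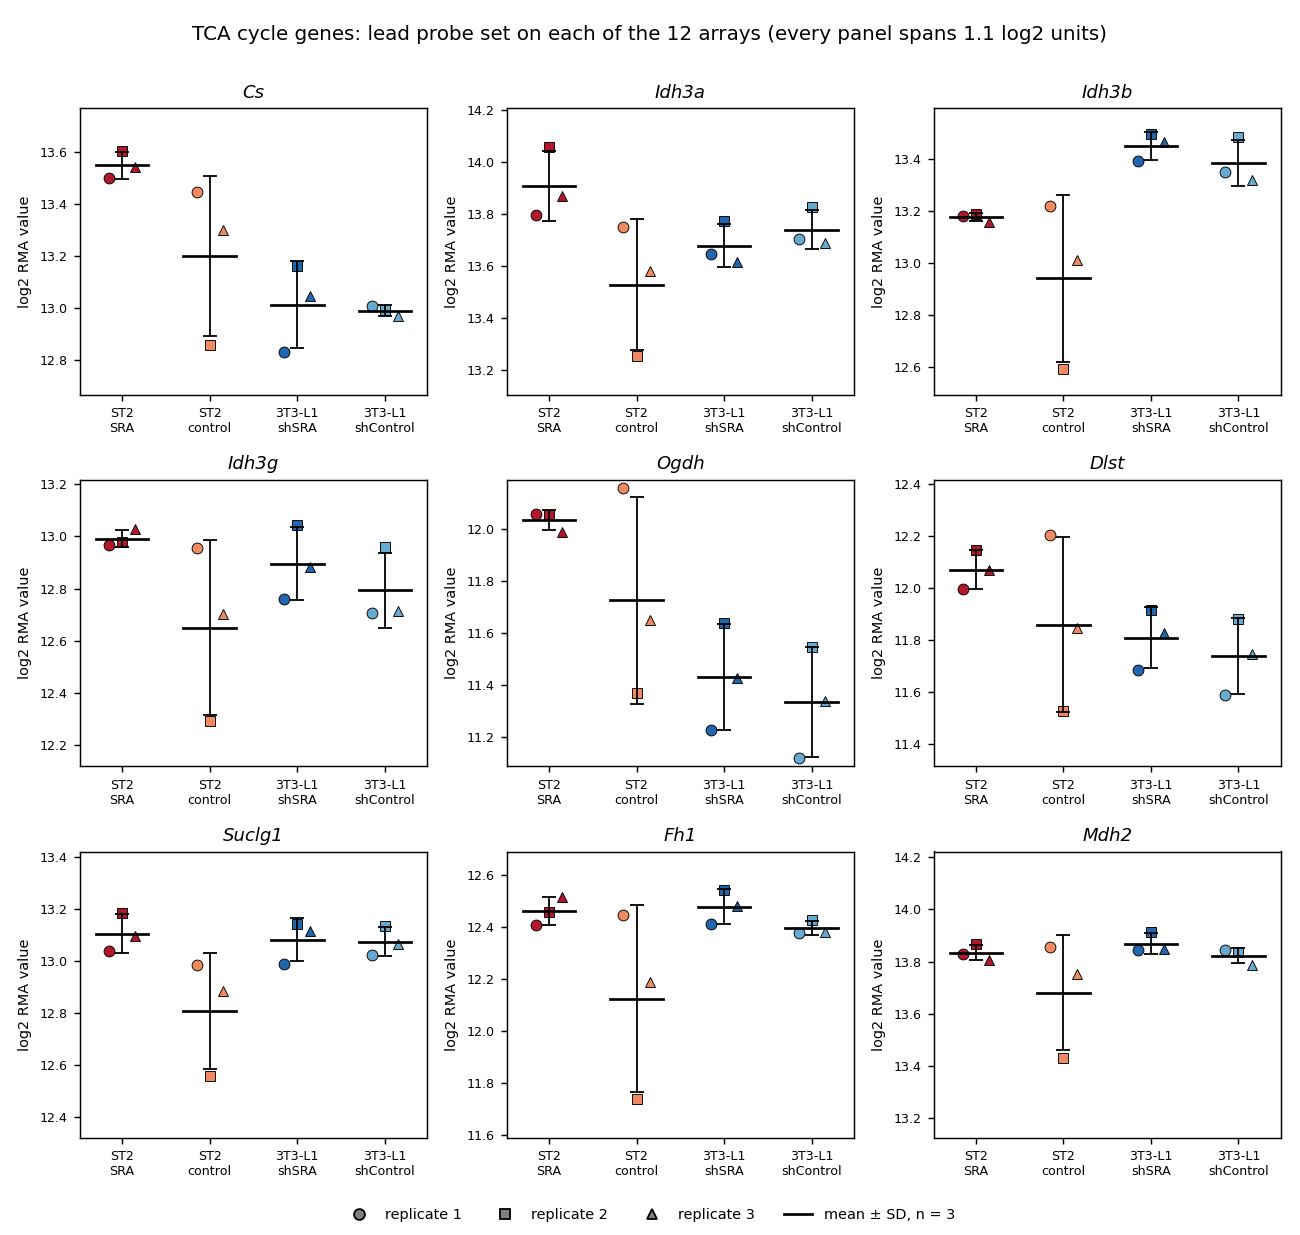
Log2 RMA value (vertical axis) of the lead probe set of each of the 9 genes on the 12 arrays, by group, with each replicate as a symbol and the mean ± SD (n = 3) as bars. ST2 control 2 (the square in the second column) is the lowest ST2 array in 9 of 9 panels, and the shSRA and shControl arrays lie at similar levels.

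Cs, which carries out the entry step of the cycle, read 13.50, 13.60 and 13.54 in SRA against 13.45, 12.86 and 13.30 in control ST2 cells. The groups did not overlap, but ST2 control 1 lay only 0.052 below the lowest SRA array, and the difference of 0.35 (SE 0.167, 95% interval -0.0030 to 0.70) had a limma adjusted p of 0.229. Without ST2 control 2 it was 0.17 (adjusted p = 0.418). The other 2 Cs probe sets gave 0.27 and 0.26.

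Idh3a, the catalytic subunit of isocitrate dehydrogenase, was the member nearest to a call. Its lead read 13.80, 14.06 and 13.87 in SRA against 13.75, 13.25 and 13.58 in control cells, without overlap. The difference was 0.38 (SE 0.128, 95% interval 0.11 to 0.65), or 1.30-fold, with an adjusted p of 0.15 from limma, and it was 0.24 without ST2 control 2 (adjusted p = 0.299). Of the 22 member probe sets 12 passed the filter, and 1 of these was called, which also belongs to Idh3a. Over all tested probe sets 2.33% were called higher (2.38% without ST2 control 2). Probe set 1422500_at read 10.33, 10.29 and 10.41 in SRA against 9.91, 9.04 and 9.53 in control cells, and was higher by 0.85 (SE 0.205, limma adjusted p = 0.0119). It was still higher without ST2 control 2, by 0.62 (SE 0.183, adjusted p = 0.0369). Probe set 1422501_s_at gave 0.57 (SE 0.192, limma adjusted p = 0.0732) and was not called. Its limma adjusted p was 0.0136 with replicate numbers blocked. Same-numbered ST2 arrays deviated from their group means with r of 0.039, 0.268 and 0.527 across probe sets. Arrays of different numbers gave r from -0.444 to 0.21. Whether the numbers pair the ST2 arrays is thus not settled. The remaining Idh3a probe set, 1447701_x_at, gave -0.0087 (95% interval -0.42 to 0.40), and its highest array was ST2 control 2 at 8.44, where the other 3 probe sets of the gene were at their lowest ST2 value. The _x_at suffix marks probes that can also match other transcripts, and whether any of the 4 probe sets does so was not tested. Thus the 4 probe sets of Idh3a did not give 1 answer, and the difference between them was not tested.

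The regulatory subunits Idh3b and Idh3g had leads at 13.18, 13.19 and 13.16 in SRA against 13.22, 12.59 and 13.01 in control cells for Idh3b, and at 12.97, 12.98 and 13.03 against 12.95, 12.29 and 12.70 for Idh3g. ST2 control 1 lay above all 3 SRA arrays for Idh3b and just below them for Idh3g. The differences were 0.24 (SE 0.165, adjusted p = 0.417) for Idh3b and 0.34 (SE 0.148, adjusted p = 0.291) for Idh3g with limma, and 0.062 and 0.16 without ST2 control 2.

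The 2-oxoglutarate dehydrogenase genes overlapped between the groups. Ogdh read 12.06, 12.06 and 11.99 in SRA against 12.16, 11.37 and 11.65 in control cells, and Dlst read 11.99, 12.15 and 12.07 in SRA against 12.20, 11.53 and 11.85 in control cells. For both genes ST2 control 1 was the highest ST2 array and ST2 control 2 the lowest. Ogdh differed by 0.31 (SE 0.19, limma adjusted p = 0.354) and Dlst by 0.21 (SE 0.148, adjusted p = 0.564), with 0.13 and 0.045 left once ST2 control 2 was taken out.

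In the lower arm of the cycle, Suclg1 read 13.04, 13.18 and 13.10 in SRA against 12.98, 12.56 and 12.89 in control cells, with no overlap. Fh1 read 12.41, 12.46 and 12.52 in SRA against 12.45, 11.74 and 12.19, and Mdh2 read 13.83, 13.87 and 13.81 in SRA against 13.86, 13.43 and 13.75 in control cells. In each of the 3 genes the SRA arrays lay within 0.15 of each other, and the control arrays spread over 0.43 to 0.71. The differences were 0.30 (SE 0.118, adjusted p = 0.238) for Suclg1, 0.34 (SE 0.143, adjusted p = 0.279) for Fh1 and 0.15 (SE 0.112, adjusted p = 0.581) for Mdh2 by limma. They shrank to 0.17, 0.14 and 0.029 without ST2 control 2, so that of all members Mdh2 differed least with SRA in both settings.

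Counting over the members, 4 of 9 leads had all SRA arrays above all control arrays (Cs, Idh3a, Idh3g and Suclg1), where 18.6% of the bright probe sets did so. The same 4 were separated without ST2 control 2 (19.5% of bright probe sets). This could not come out otherwise, because ST2 control 2 was the lowest ST2 array for all 9 leads. At an unadjusted p under 0.05, limma gave 5 of 9 leads in the fit over all probe sets, all higher, where 18.1% of the bright probe sets were higher at that p. It gave 1 of 9 (Idh3a, higher) without ST2 control 2, against 9.08%. Of the 22 probe sets 21 were positive in each setting, with medians of 0.29 and 0.14. The negative one was Idh3a 1447701_x_at with all arrays and Dlst 1437775_at (-0.045) without ST2 control 2.

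**Figure D2:**
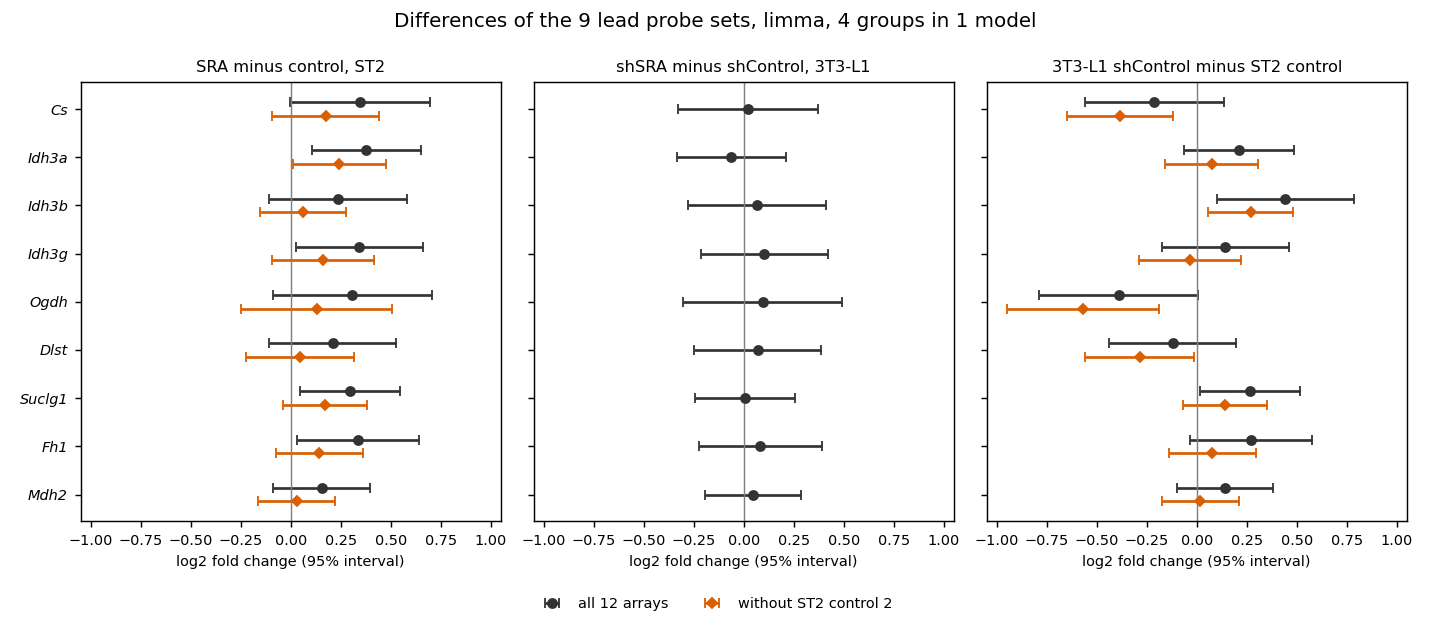
Log2 fold change (horizontal axis, points) and 95% interval (bars) of the 9 lead probe sets in 3 comparisons, with all 12 arrays (circles) and without ST2 control 2 (diamonds). All 9 points are above 0 with SRA in ST2 cells in both settings, and the shSRA points lie between -0.06 and 0.10.

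The spread behind these errors came mainly from the ST2 control arrays. The leads of ST2 control 2 lay 0.37 to 0.58 below the average of ST2 control 1 and 3 (median -0.52), against -0.43 for the bright probe sets, and those of ST2 control 1 lay 0.26 to 0.65 above its group's remaining arrays (median 0.42), against 0.24. ST2 control 2 was the lowest of all 12 arrays for 7 of 9 leads. The exceptions were Cs, lowest in shSRA 1, and Ogdh, lowest in shControl 1. The SRA arrays of ST2 cells differed by less, with median deviations of the leads from -0.074 to 0.049. Either control array moved the size of the ST2 difference: the median of the 9 leads was 0.47 without ST2 control 1 and 0.14 without ST2 control 2, against 0.31 with both, and none was called in either case.

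**Figure D3:**
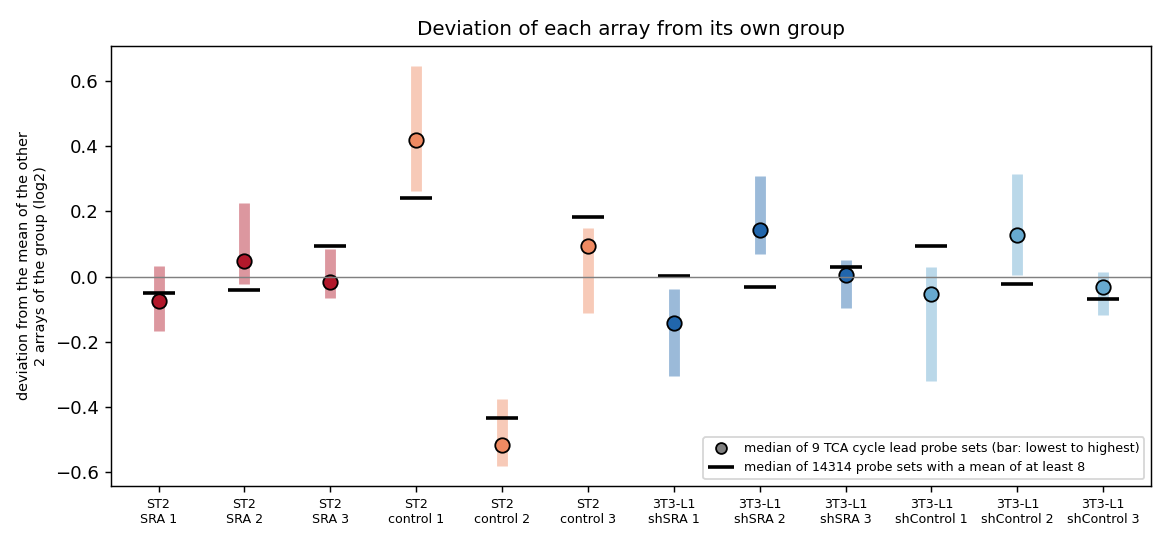
Deviation (log2, vertical axis) of every array from the average of the remaining 2 in its group, with the median (circle) and the lowest to highest value (bar) of the 9 leads, and the median of 14314 bright probe sets (dash). ST2 control 2 is low and ST2 control 1 high for the 9 leads and for the bright probe sets, and replicate 2 of both 3T3-L1 groups is high for the leads only.

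In 3T3-L1 adipocytes none of the 9 leads was called with the knockdown. The differences (shSRA minus shControl) ran from -0.062 for Idh3a to 0.10 for Idh3g with a median of 0.067, and the limma adjusted p was 1 for each. None reached an unadjusted p under 0.05 either. The bright probe sets had a median difference of 0.025, with 59.3% positive. Few genes were called at all in this comparison, 0.0315% of tested probe sets higher and 0.042% lower, so the count of 0 members is near the background. Over the 9 leads the 95% intervals reached down to -0.34 (Idh3a, 0.792-fold) and up to 0.49 (Ogdh, 1.41-fold), and a missed threshold does not show equal levels.

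By gene, Cs read 12.83, 13.16 and 13.04 in shSRA against 13.01, 12.99 and 12.97 in shControl, so that the shSRA arrays lay on both sides of the control arrays. Idh3a, the only lead with a negative difference, read 13.65, 13.77 and 13.61 in shSRA against 13.70, 13.83 and 13.69 in shControl. Ogdh read 11.23, 11.64 and 11.43 in shSRA against 11.12, 11.54 and 11.34 in shControl. For Ogdh each shSRA array lay above the shControl array of the same number, by less than the spread of 0.41 within shSRA and 0.42 within shControl. Idh3g was similar, at 12.76, 13.04 and 12.88 in shSRA against 12.71, 12.96 and 12.71 in shControl.

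Mdh2, at 13.84, 13.91 and 13.85 in shSRA against 13.84, 13.84 and 13.79 in shControl, was the 1 lead of 9 whose groups did not overlap, with shSRA higher, against 6.02% of bright probe sets. The gap between shSRA 1 and shControl 1 was only 0.0009, and the difference of the groups was 0.045 (SE 0.112). Fh1 had a difference of 0.083 (SE 0.143), Dlst of 0.070 (SE 0.148), Idh3b of 0.067 (SE 0.165) and Suclg1 of 0.0066 (SE 0.118). Over the 22 probe sets the range was -0.16 (Idh3a 1422500_at, the probe set that was higher with SRA in ST2) to 0.18 (Idh3b 1418885_a_at). Of them 17 were positive, where 59.3% of bright probe sets were, and none was called.

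Same-numbered shSRA and shControl arrays deviated together from their group means (r of 0.587, 0.586 and 0.382 across probe sets), and replicate 2 was the high array for the members in both groups, with median deviations of the 9 leads of 0.14 in shSRA and 0.13 in shControl. With these numbers blocked, 101 probe sets were called in 3T3-L1 cells where 14 were without it, and the adjusted p of each lead stayed at 1. Within same-numbered pairs, 6 leads were higher in shSRA in all 3 pairs (Idh3b, Idh3g, Ogdh, Dlst, Fh1 and Mdh2), 1 was lower in all 3 (Idh3a) and 2 were mixed (Cs and Suclg1). Of the bright probe sets 22% were higher and 14.5% lower in all 3 pairs. The pair differences of Ogdh were 0.11, 0.093 and 0.086 and those of Idh3a were -0.058, -0.053 and -0.074.

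The levels of the 4 groups were ordered by their means for each gene. Of 27 neighbouring pairs of groups in these orders, 24 had overlapping arrays and 3 did not, where 23.6% of such pairs did not overlap over the bright probe sets. The steps without overlap were ST2 SRA above ST2 control for Cs, 3T3-L1 shControl above ST2 SRA for Idh3b, and 3T3-L1 shControl above ST2 control for Suclg1. Cs, Ogdh and Dlst shared 1 order, with ST2 SRA highest, then ST2 control, 3T3-L1 shSRA and 3T3-L1 shControl. Idh3b was highest in shSRA (13.45 ± 0.054), then shControl (13.38 ± 0.089), ST2 SRA (13.18 ± 0.015) and ST2 control (12.94 ± 0.32; SD, n = 3 each). The groups' means spanned from 0.19 (Mdh2) to 0.70 (Ogdh). These orders and spans are from all 12 arrays. Without ST2 control 2 the ST2 control mean rose from 13.68 to 13.80 for Mdh2 and from 12.94 to 13.12 for Idh3b. For Idh3g it rose from 12.65 to 12.83, above 3T3-L1 shControl (12.79), so that the order of Idh3g changed. No other gene's order changed.

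The control groups of the lines were compared to see how the members differ between the models. Line, vector and day of collection differ together here and cannot be told apart. Idh3b was the 1 lead called higher, at 13.35, 13.49 and 13.32 in 3T3-L1 shControl against 13.22, 12.59 and 13.01 in ST2 control, and none was called lower, where 37.4% of all tested probe sets were called higher and 26.2% lower. The Idh3b lead was higher by 0.44 (SE 0.165, limma adjusted p = 0.0255). The lead failed the variance filter without ST2 control 2, and over all probe sets its difference was 0.27 (adjusted p = 0.0561). In that setting 38.5% of the probe sets past the filter were called higher and 41.4% lower. Of the other probe sets of the gene, 1418885_a_at kept its call, and 1441271_at failed the filter but was under the threshold over all probe sets. Idh3b 1418885_a_at was higher by 0.87 (SE 0.181, adjusted p = 0.000445) and by 0.71 without ST2 control 2 (adjusted p = 0.00174), and 1441271_at, a dim probe set, by 0.52 (adjusted p = 0.00685) and 0.46 (adjusted p = 0.00629 over all probe sets). With all arrays 3 of 3 Idh3b probe sets were thus called higher in 3T3-L1 shControl.

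Ogdh and Cs were called lower in 3T3-L1 shControl once ST2 control 2 was left out, and also with all arrays after centring on bright probe sets. Ogdh read 11.12, 11.54 and 11.34 in 3T3-L1 shControl against 12.16, 11.37 and 11.65 in ST2 control, a difference of -0.39 (SE 0.19, adjusted p = 0.0781) with all arrays. Without ST2 control 2 it was -0.57 (SE 0.175, adjusted p = 0.0098), and that of Cs was -0.38 (SE 0.123, adjusted p = 0.0125), where with all arrays Cs gave -0.21 (adjusted p = 0.261). For the subunit partner of Ogdh, Dlst, the lead gave -0.12 with all arrays and -0.29 without (adjusted p = 0.114). With ST2 control 2 left out, 41.4% of all tested probe sets were called lower and 38.5% higher. Of the 8 member probe sets past the filter in that setting, 5 were called lower and 1 higher. Those lower were the leads of Cs and Ogdh, Ogdh 1445632_at (-0.49, adjusted p = 0.0236), Dlst 1431011_at (-0.41, adjusted p = 0.026) and Idh3a 1422501_s_at (-0.51, adjusted p = 0.0193). With all arrays the last 3 gave -0.31, -0.34 and -0.34 and were not called (adjusted p = 0.158, 0.0711 and 0.122). Idh3a 1447701_x_at was called lower with all arrays (-0.56, adjusted p = 0.0194) and not without ST2 control 2 (-0.32, adjusted p = 0.0795), while the Idh3a lead gave 0.21 and 0.075. Arrays did not overlap for 2 of 9 leads with all arrays, both higher (Idh3b and Suclg1), against 32.9% of bright probe sets. Without ST2 control 2 there were 2 higher (again Idh3b and Suclg1), against 33.3%, and 2 lower (Cs and Ogdh), against 34.7%. The higher count was bound to stay the same, since ST2 control 2 was the lowest ST2 array for all 9 leads.

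**Figure D4:**
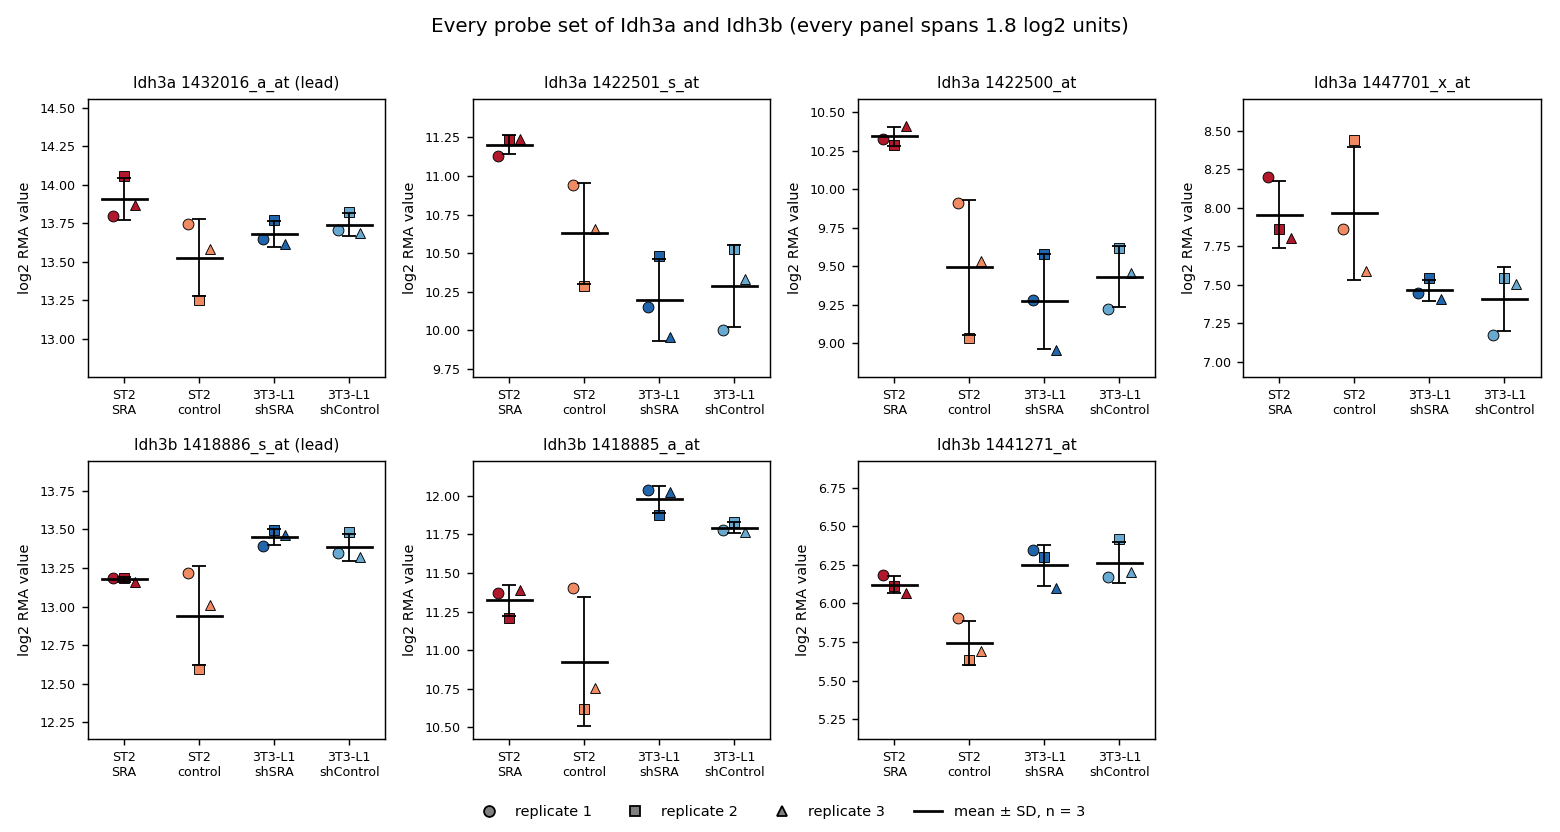
Log2 RMA value (vertical axis) of every probe set of Idh3a (upper row) and Idh3b (lower row) on the 12 arrays, by group, with each replicate as a symbol and the mean ± SD (n = 3) as bars. In Idh3a 1422500_at the SRA arrays sit between 10.29 and 10.41, above the control arrays of ST2 cells, and for 2 Idh3b probe sets both 3T3-L1 groups lie above every ST2 array.

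The members followed each other over the arrays to different degrees. Across the 12 arrays, which share 4 groups and one low array, Pearson's r between leads had a median of 0.716 over 36 pairs (from -0.128 to 0.964). Ogdh and Dlst had r = 0.928 and Cs and Ogdh r = 0.925, which were 0.966 and 0.929 without ST2 control 2. Fh1 and Mdh2 had r = 0.964, and 0.761 without that array. Over all 12 arrays only Idh3b had negative pairs, with r = -0.0805 to Cs and -0.128 to Ogdh, and -0.694 and -0.545 without ST2 control 2. Of 8040 other genes, those whose profile was most like the mean profile of the members were Ndufs7 (r = 0.972), Ndufa10 (0.967), Ndufb5 (0.966), Rnpepl1 (0.965) and Ndufb6 (0.964). All but Rnpepl1, an aminopeptidase-like gene, encode subunits of respiratory complex I. Without ST2 control 2 their r ranged from 0.80 (Rnpepl1) to 0.922 (Ndufb5).

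In the SRA comparisons the rest of the cycle behaved much like the members. Of 9 listed genes 8 were measured (Idh2, Dld, Sucla2, Suclg2, Sdha, Sdhb, Sdhc and Sdhd), none was called in either SRA comparison, and the median difference was 0.29 in ST2 cells (0.15 without ST2 control 2) and 0.087 in 3T3-L1 cells. Sdhb, the iron-sulphur subunit of succinate dehydrogenase, gave 0.39 (adjusted p = 0.227) and Suclg2, the GTP-specific partner of Suclg1, 0.023 (adjusted p = 0.96) with SRA in ST2, and 0.17 and -0.099 without ST2 control 2. Between the control groups Idh2, the NADP-dependent mitochondrial isocitrate dehydrogenase, was higher in 3T3-L1 shControl (11.43 ± 0.16) than in ST2 control (10.73 ± 0.18; SD, n = 3 each) by 0.70 (adjusted p = 0.000905), and by 0.62 without ST2 control 2 (adjusted p = 0.00119). Dld, the dihydrolipoamide dehydrogenase shared by the 2-oxoglutarate and pyruvate complexes, was called with all arrays alone (0.41, adjusted p = 0.0454, and 0.178 without ST2 control 2). Thus 2 of these 8 genes were called higher with all arrays, where 37.4% of tested probe sets were. Their median in this comparison was 0.36, against 0.14 for the 9 members (0.21 and 0.018 without ST2 control 2). The median of the bright probe sets was 0.11 with all arrays and -0.013 without ST2 control 2.

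Around the cycle a few genes passed the test in ST2 cells. Over all tested probe sets 2.33% were called higher with SRA and 5.65% lower (2.38% and 12.9% without ST2 control 2). Among 12 measured genes of citrate and malate export and their cytosolic counterparts, 1 was called higher with SRA and none lower. This was Slc25a10, the mitochondrial dicarboxylate carrier, at 12.71 ± 0.093 in SRA and 11.93 ± 0.25 in control cells (SD, n = 3 each), a difference of 0.78 (SE 0.161, limma adjusted p = 0.00352), and 0.66 without ST2 control 2 (adjusted p = 0.00405). Without that array Acly, ATP citrate lyase, was called lower (-0.42, adjusted p = 0.0433). Of 8 measured regulators of mitochondrial genes, 1 was called higher, Esrra, the oestrogen-related receptor α, by 0.55 (SE 0.168, adjusted p = 0.048), and this call was lost without ST2 control 2 (0.42, adjusted p = 0.0682).

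None of the 12 measured genes of pyruvate entry was called in ST2 cells with all arrays. Without ST2 control 2, Pdk1, a kinase that inactivates pyruvate dehydrogenase, was lower (-0.75, adjusted p = 0.00291), as was Pdp1, a phosphatase that reactivates it, which failed the variance filter (-0.45, adjusted p = 0.0277 over all probe sets). No gene was called among 6 of anaplerosis and redox (median 0.054), 8 markers of mitochondrial mass (0.22), 17 of oxidative phosphorylation (0.23), 13 of fatty acid oxidation (0.28) or 12 of glycolysis (-0.19) with all arrays. These medians without ST2 control 2 were -0.092 for anaplerosis and redox, where the sign turned, 0.085 for mitochondrial mass, 0.11 for fatty acid oxidation and -0.30 for glycolysis. The 17 oxidative phosphorylation genes were all positive with all arrays, and 15 without ST2 control 2, when their median was 0.066. Of the bright probe sets 70.4% were positive with all arrays (median 0.12) and 47.1% without ST2 control 2 (median -0.014). Of the 12 measured glycolysis genes 3 were called lower without that array (Hk1, Pfkl and Pkm), where 12.9% of tested probe sets were. In 3T3-L1 cells no gene of any of these lists was called with the knockdown, with or without the replicate block, and the list medians lay between -0.11 (glycolysis) and 0.087 (rest of the cycle).

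Markers of cell state moved with SRA in ST2 cells, where 2.33% of all tested probe sets were called higher and 5.65% lower (2.38% and 12.9% without ST2 control 2). Of 9 measured adipocyte markers 2 were higher, Slc2a4 (the insulin-responsive glucose transporter) by 1.08 and Cd36 (a fatty acid receptor) by 0.86. Of 8 preadipocyte and fibroblast markers 4 were lower, from -0.90 (Pdgfrb) to -1.95 (Col3a1), and the 3 measured mitosis markers were lower (Mki67 -1.80, Top2a -1.82 and Cdk1 -1.15). None of 6 macrophage and blood or 4 endothelial markers was called, with Ptprc, the pan-leukocyte antigen CD45, at 4.19 in SRA and 4.05 in control cells. Of 4 brown and beige markers Dio2 was lower (-0.60, adjusted p = 0.0482) and Ucp1 was dim in both groups, at 5.95 in SRA and 5.97 in control cells. The part of these marker differences in the values of the members was not tested. The same 10 markers were called in the same directions without ST2 control 2, among them Slc2a4 (1.06), Col3a1 (-2.12), Mki67 (-1.96) and Dio2 (-0.81). In 3T3-L1 cells no marker of these lists was called with the knockdown. With the replicate numbers blocked 2 were, Mki67 higher (0.70, adjusted p = 0.022) and Cidea, a lipid droplet protein of brown fat, lower (-0.80, adjusted p = 0.0197). That fit called 0.53% of all tested probe sets.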

How the data were processed

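The authors hybridised RNA to Affymetrix mouse genome 430 2.0 arrays and deposited log2 expression values normalised with RMA over all 12 arrays. The submitters' processing notes name affy, RMA and limma, with no versions. Annotation gave 1 gene symbol for 34958 probe sets, several for 932 and none here for 9211. No per-sample column was left unused.

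Values were fitted in limma 3.58.1 (R 4.3.3) as 1 linear model of 4 groups with empirical Bayes moderation, after the study's filter (variance over 0.05). P-values were adjusted per comparison. The self-test on simulated data ran before the fit. Array number, 3 a group, limits the precision.

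The members and the gene lists were chosen with earlier results of these data known. Named genes were the 9 leads, other member probe sets with a call or the opposite sign, and up to 4 called genes a list and comparison by size of difference; Idh3a 1422501_s_at, single list genes given without a call and the marker values were added after their values were seen. Symbols with no match in the array annotation, 11 of 150 list entries, were not analysed here. Replicate numbers were taken to pair the arrays where every same-number r was over 0.1. The 3T3-L1 numbers met this rule, and those of ST2 missed it for replicate 1 (r of 0.039, 0.268 and 0.527). Sequences came from RefSeq (GRCm38.p6).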

Additional observations from a re-analysis of the deposited data

How the results depend on the processing

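The calls were recomputed under 12 settings that leave out 1 array each and 12 others. A count of calls covers only leads that pass the variance filter of that setting. With the knockdown in 3T3-L1 cells 0 members were called in each setting, and with SRA in ST2 cells 0 were called lower. The count called higher in ST2 cells was 0 except in 3 settings. It was 2 (Cs and Ogdh) with array weights, where 4 more leads (Idh3a, Idh3g, Suclg1 and Fh1) were under the threshold over all probe sets. These weights were 0.0759 for ST2 control 2 and 18.3 for ST2 control 3, and their estimation did not converge. The count was 1 when probe sets were averaged by gene (Idh3a, 0.448, limma adjusted p = 0.0499) and 1 with the probe set of highest variance (Idh3a 1422500_at). When arrays were left out, the median of the members ranged from 0.143 to 0.469 in ST2 cells and from 0.0164 to 0.113 with the knockdown.

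With the replicate block, 0 members were called higher and 0 lower in both SRA comparisons. The medians were 0.308 (ST2) and 0.067 (3T3-L1), and the lowest adjusted p of a lead was 0.115. The block brought the calls over all tested probe sets to 3023 in ST2 cells, against 1522 without it, and to 101 in 3T3-L1 cells, against 14. It changed no lead's call. The comparison of the control groups could not be fitted with the block.

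Between 3T3-L1 shControl and ST2 control, the count called higher (1, Idh3b) ranged from 0 to 2 when 1 array was left out, with 0 without ST2 control 2 or shControl 2 and 2 (Idh3b and Fh1) without ST2 control 1. It was 0 with only the arrays compared (Idh3b 0.443, adjusted p = 0.0973), and the cause was not tested. It was also 0 after a second quantile normalization and 0 with arrays centred on bright probe sets, because Idh3b then failed the filter. Over all probe sets it was still higher there (0.299, adjusted p = 0.0141, and 0.349, adjusted p = 0.019). The count called lower (0) ranged from 0 to 2 on leaving out 1 array. It was 2 after the second quantile normalization and 2 with centring on bright probe sets (Cs and Ogdh both times), 1 with array weights (Cs) and 1 with the trend and robust options of eBayes (Ogdh). The cause was not tested.

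No called difference changed sign. Of those not called, with the knockdown Cs was -0.00598 after the second quantile normalization and -0.00279 with bright centring, and Suclg1 was -0.0338 and -0.0186 there and -0.0075 with array weights. Dlst was -0.022 for its probe set of highest variance. Leaving out 1 array, Cs ranged from -0.0518 to 0.113, Ogdh from -0.0117 to 0.2, Dlst from -0.00498 to 0.141 and Suclg1 from -0.024 to 0.0539. Between the control groups, Idh3a was -0.187 with its probe sets averaged and -0.0615 for that of highest variance, Idh3g was -0.00681 after the second quantile normalization, and Dlst was 0.228 for its probe set of highest variance. Leaving out 1 array, Idh3g ranged from -0.0358 to 0.296 and Dlst from -0.285 to 0.0512. The cause was not tested.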
